A study of Rattus norvegicus with 47 samples.

Results

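The genes described here make and package the main fast transmitters of the brain, GABA and glutamate. They are Gad1 (ENSRNOG00000000007), Gad2 (ENSRNOG00000018200), Slc32a1 (ENSRNOG00000015393), Slc17a7 (ENSRNOG00000020650) and Slc17a6 (ENSRNOG00000016147), 5 of the 32883 gene IDs in a count table of rat prefrontal cortex. They were chosen by function and taken from the table by these Ensembl IDs, and all 5 were present. The table holds IDs only, so the pairing of each ID with its symbol comes from the rule that chose the members and not from the deposited file.

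Prefrontal cortex was collected on postnatal day 1 from rats whose dams had been exposed once a day during gestation, and 1 RNA-seq library was made from each of 47 samples. The exposed groups received 1000 µg of BFR, which is EH-TBB with BEH-TEBP, 1000 µg of OPFR, which is triphenyl phosphate with its isopropylated form, or 2000 µg of the commercial flame retardant FireMaster mixture called FM550. The study's title asks whether effects on the neonatal cortex depend on sex and how far the organophosphates account for those of the mixture. Each treatment, control included, had 6 male and 6 female libraries, except that OPFR females had 5. The labels do not say what the controls received, how old or of what strain the dams were, or which samples came from different litters or animals, so p-values measure only the spread between these samples.

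GABA, the main inhibitory transmitter of the mature cortex, is made from glutamate by the glutamate decarboxylases GAD67 (Gad1) and GAD65 (Gad2). GAD67 supplies most of the cell's GABA, while GAD65 is concentrated at nerve terminals. The vesicular transporter VGAT (Slc32a1) then loads GABA into synaptic vesicles. In glutamate neurons that loading step is carried out by VGLUT1 (Slc17a7) or VGLUT2 (Slc17a6). VGLUT1 is the main form in mature cortical pyramidal neurons, and VGLUT2 is typical of thalamic neurons and is also made in the developing cortex. Around birth the cortex is still building both systems, so their transcripts serve as markers of interneurons and excitatory neurons in bulk tissue. In such tissue, fewer cells of a type and less RNA per cell cannot be told apart.

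The promoters are shown because the 3 GABA genes varied together between libraries, while no joint variation of the vesicular glutamate transporters was detected. Whether promoter sequence bears on this was not tested. Each line gives the 250 bases upstream of the RefSeq transcription start on assembly GRCr8, 5′ to 3′ on the + strand, with capitals marking the motif letters found. The windows are chr3:75777202-75777451 for Gad1, chr17:89671468-89671717 for Gad2, chr3:167686995-167687244 for Slc32a1, chr1:104785955-104786204 for Slc17a7 and chr1:110348197-110348446 for Slc17a6.
Gad1: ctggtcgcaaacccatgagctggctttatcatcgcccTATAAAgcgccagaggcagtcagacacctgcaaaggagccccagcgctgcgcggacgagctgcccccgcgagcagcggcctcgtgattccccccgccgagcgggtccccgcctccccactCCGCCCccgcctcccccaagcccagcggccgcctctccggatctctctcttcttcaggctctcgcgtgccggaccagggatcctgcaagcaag
Gad2: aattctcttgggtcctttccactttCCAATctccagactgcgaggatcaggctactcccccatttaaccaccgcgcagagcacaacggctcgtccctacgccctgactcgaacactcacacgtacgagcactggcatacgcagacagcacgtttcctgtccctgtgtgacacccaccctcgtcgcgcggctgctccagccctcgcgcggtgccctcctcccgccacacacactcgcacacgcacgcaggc
Slc32a1: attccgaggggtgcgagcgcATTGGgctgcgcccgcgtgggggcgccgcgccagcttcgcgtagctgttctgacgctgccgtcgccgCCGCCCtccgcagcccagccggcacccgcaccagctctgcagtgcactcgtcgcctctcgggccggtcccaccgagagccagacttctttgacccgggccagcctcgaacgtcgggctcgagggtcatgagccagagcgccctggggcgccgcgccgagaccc
Slc17a7: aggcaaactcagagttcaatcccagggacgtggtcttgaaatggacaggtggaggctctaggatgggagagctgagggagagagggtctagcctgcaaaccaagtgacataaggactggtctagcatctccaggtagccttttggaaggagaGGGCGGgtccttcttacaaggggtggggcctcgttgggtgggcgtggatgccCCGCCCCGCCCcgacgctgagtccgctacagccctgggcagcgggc
Slc17a6: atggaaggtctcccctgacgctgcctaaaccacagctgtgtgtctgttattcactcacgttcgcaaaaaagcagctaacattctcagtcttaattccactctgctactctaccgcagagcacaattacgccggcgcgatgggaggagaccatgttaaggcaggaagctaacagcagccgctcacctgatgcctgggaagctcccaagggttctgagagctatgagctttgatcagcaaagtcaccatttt

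Base composition separated the GABA genes from Slc17a6. GC content was 68.4% for Gad1, 62.0% for Gad2, 73.6% for Slc32a1, 61.2% for Slc17a7 and 50.8% for Slc17a6, beside a median of 51.2% over 33469 rat promoters of the same length. The number of CpG dinucleotides was 23, 22 and 34 in the GABA genes and 10 and 9 in Slc17a7 and Slc17a6, where the median promoter had 5. Of the motifs searched on both strands, TATAAA (the TATA box, in 12.9% of all promoters) was found once, in Gad1. CCAAT (34.0% of promoters) was found once in Gad2 and once in Slc32a1. GGGCGG (the GC box, 30.5% of promoters) had 1 match in Gad1, 1 in Slc32a1 and 3 in Slc17a7, of which the last 2 share a base. TAATTA, a homeodomain core (4.86% of promoters), was found in none of the 5. No motif searched was common to the 3 GABA genes. A match describes the letters of the window and is not a measured binding site.

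All 5 transcripts were well covered. Library totals were 41.1 to 73.4 M reads, and the lowest count of any member in any library was 2146 reads, for Slc17a6. Counting error was therefore at most 2.16% (CV) for a member, far below the spread between libraries. All 5 passed the filter on low counts that left 17135 genes for testing. Levels are given as CPM (counts scaled to library size) after TMM scaling and are not divided by transcript length, so each gene is compared between libraries only. Other genes of these pathways and markers of other cell types (glia, vessels, striatum, thalamus) were not looked up, because none of the table's IDs could be matched to the reference gene table used here.

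Libraries do not all stand on an equal footing. Sample titles carry the numbers 1 to 47, and control libraries 1 to 7 (5 males, 2 females) stood apart from the other 5 controls: 2585 of 17193 genes (15.0%) differed between them by edgeR's quasi-likelihood test at an adjusted p below 0.05. Only 1 control male, library 11, lies outside that run. The labels name no batch, so whatever sets libraries 1 to 7 apart and the control condition cannot be told apart in males. Values with a term for these libraries, or without them, are given where they differ much from the pooled ones. The term fits 1 shift for each gene, taken as equal in both sexes, so male values with it also rest on the control females. OPFR libraries 31 to 35 were known from earlier results of these data to differ from OPFR libraries 25 to 30, and OPFR females 4 and 5 (libraries 32 and 34) most of all.

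Gad1, which encodes the decarboxylase behind most cellular GABA, ranged from 89.7 to 209.9 CPM over the 47 libraries, a 2.34-fold span. In control males the lowest, median and highest values were 119.7, 147 and 199 CPM, and in control females 116, 136 and 159.7 CPM. BFR males had 124, 144 and 205 CPM, and BFR females 116, 127 and 169 CPM. Males of both groups reached values that no female of these groups did, while their lowest values were alike. OPFR males ran from 101 over a median of 138 to 163 CPM, and the 5 OPFR females had 159.9, 159, 143, 89.7 and 99.7 CPM. FM550 males had 119, 145 and 209.9 CPM and FM550 females 117, 159 and 188 CPM. The 4 lowest libraries of the series for Gad1 were 32, 34, 31 and 33, all of them OPFR, and the highest was FM550 male 2. Group means lay between 130.1 ± 33.2 CPM (SD, n = 5) in OPFR females and 157 ± 24.2 (n = 6) in FM550 females.

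Gad2, the decarboxylase of nerve terminals, had the widest span, from 79.4 to 215 CPM (2.71-fold). Control males had a lowest, median and highest value of 97.2, 138 and 201 CPM and control females of 93.5, 122 and 186 CPM. In BFR males these were 115, 142 and 198 CPM and in BFR females 99.0, 120.3 and 176 CPM. The highest BFR female, replicate 1, lay well above the other 5, which reached 126 CPM. OPFR males had 79.4, 151 and 169 CPM, and the 5 OPFR females 150.5, 162, 132, 100.4 and 103 CPM. FM550 males had 101, 145 and 215 CPM and FM550 females 89.7, 163 and 176 CPM. Group means differed less than the libraries within a group: they ran from 125 ± 26.8 CPM (SD, n = 6) in BFR females to 149.6 ± 33.3 (n = 6) in FM550 females.

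Slc32a1, the transporter that fills GABA vesicles, ranged from 68.3 to 184 CPM (2.69-fold). The 6 control males had 184, 117, 143, 100.5, 134 and 142 CPM, and the 6 control females 136, 117, 72.0, 110.5, 85.4 and 117 CPM. Control males held the highest group mean of the series, 137 ± 28.3 CPM (SD, n = 6), against 106 ± 23.3 in control females. Exposed males had lower means: 113 ± 26.7 CPM with BFR, 109 ± 22.8 with OPFR and 111 ± 25.0 with FM550 (n = 6 each). In exposed females the means were 96.4 ± 13.7 CPM with BFR (n = 6), 105 ± 30.1 with OPFR (n = 5) and 118 ± 16.9 with FM550 (n = 6). The lowest, median and highest values were 85.0, 104 and 162 CPM in BFR males, 68.3, 112 and 132 CPM in OPFR males and 91.0, 106 and 159.6 CPM in FM550 males. Exposed and control males overlapped, since the highest exposed male, BFR male 6 at 162 CPM, exceeded 5 of the 6 control males. Females overlapped as well: BFR females had 78.3, 97.2 and 115 CPM, FM550 females 101, 116 and 139.8 CPM, and the 5 OPFR females 127, 139.8, 111, 74.9 and 73.4 CPM.

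Slc17a7, the vesicular glutamate transporter of mature pyramidal neurons, ranged from 93.3 to 229 CPM (2.45-fold). Control males had a lowest, median and highest value of 141, 191 and 212 CPM and control females of 162, 181 and 197 CPM. BFR males had 147, 167 and 202 CPM and BFR females 141, 169 and 229 CPM. OPFR stood out by single libraries and not as a group. The 5 OPFR females had 173, 187, 189, 93.3 and 126 CPM and the 6 OPFR males 189, 163, 189, 173, 98.8 and 189.5 CPM. Libraries 32, 33 and 34, all OPFR, held the 3 lowest values of the series, while library 35 of the same run was the highest OPFR library. FM550 males had 131, 167 and 225 CPM and FM550 females 135, 171 and 211 CPM.

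Slc17a6, the transporter typical of thalamic neurons, ranged from 37.8 to 89.9 CPM (2.38-fold), with both ends in BFR libraries. Control males had 45.4, 52.3 and 73.3 CPM as lowest, median and highest, and control females 42.4, 57.0 and 80.3 CPM. BFR males had 43.8, 54.2 and 89.9 CPM and BFR females 37.8, 68.9 and 81.1 CPM. OPFR males had 50.1, 55.9 and 85.3 CPM, where the top value, replicate 4, was well above the other 5. The 5 OPFR females had 59.0, 52.3, 53.5, 70.5 and 66.2 CPM. FM550 males had 51.1, 60.1 and 66.6 CPM and FM550 females 50.5, 57.6 and 78.0 CPM. BFR females had the highest mean, 65.4 ± 15.6 CPM (SD, n = 6), and control males the lowest, 54.4 ± 10.1 (n = 6).

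**Figure D1:**
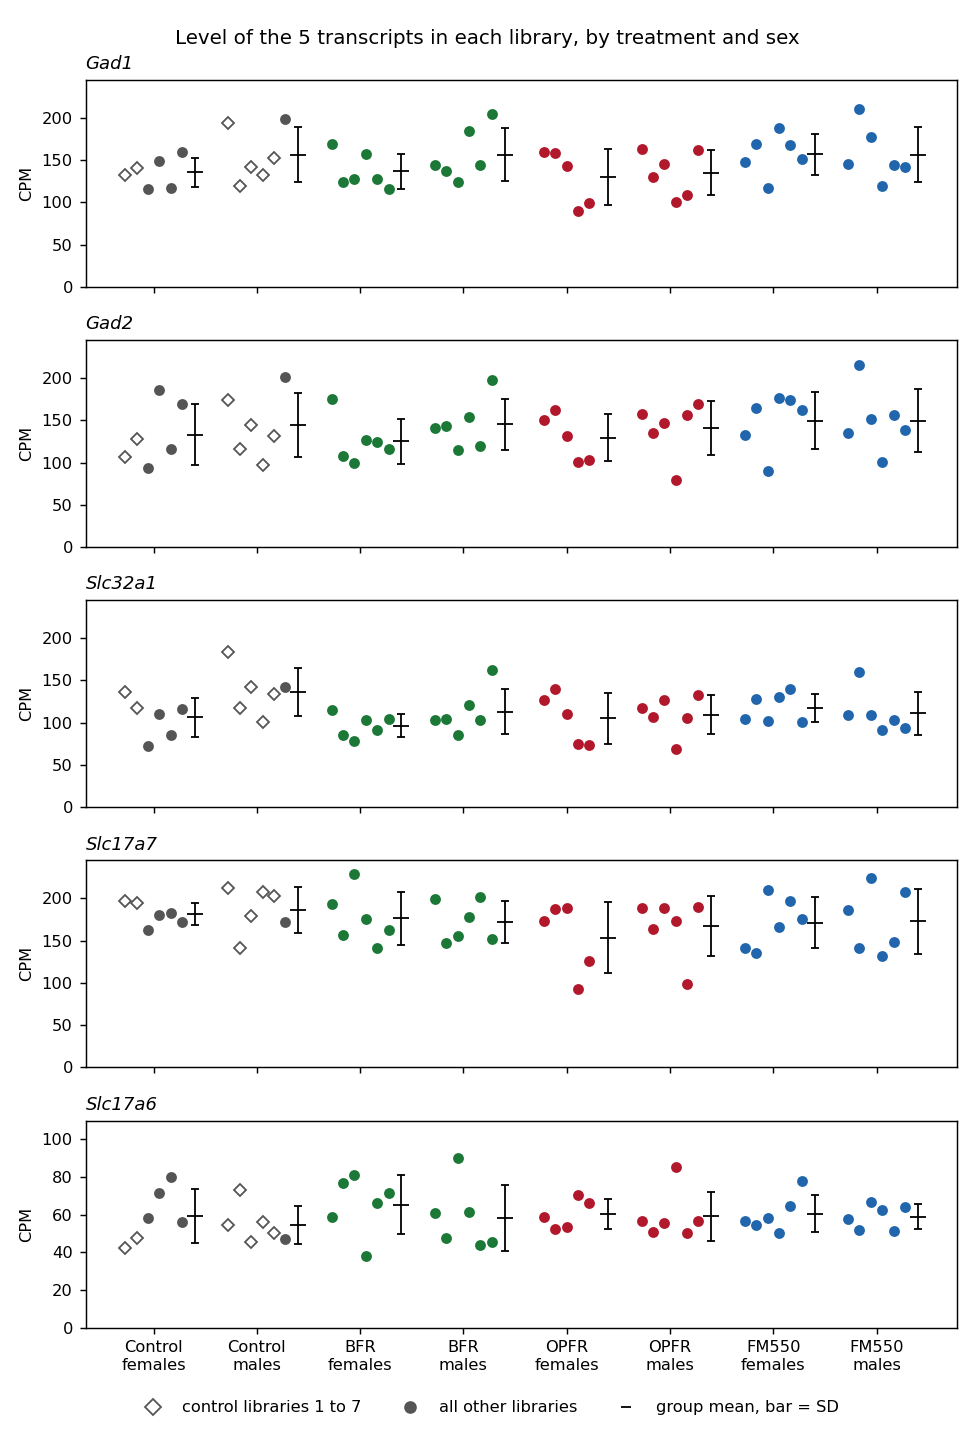
Level of each transcript (y axis, TMM-scaled CPM, from 0) in each of the 47 libraries by treatment and sex, with the group mean and SD as a bar. Open diamonds are control libraries 1 to 7. For each gene the 8 groups overlap, and the lowest Gad1 and Slc17a7 values lie in OPFR libraries.

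For each of the 5 genes the ranges of all 8 groups shared a common stretch, so no group was separated from any other. When groups were ordered by mean level, neighbours differed by less than the smaller of their SDs, with 1 exception: the mean of Slc32a1 in control males lay above that in FM550 females by more than the SD in FM550 females, although by less than that in control males. Within a group, over libraries 8 to 47 only, the SD of log2 CPM was 0.28 for Gad1, 0.35 for Gad2, 0.31 for Slc32a1, 0.30 for Slc17a7 and 0.29 for Slc17a6. The median gene of 12934 had 0.15. The 5 members thus varied more between libraries of a group than 87.2% (Gad1) to 93.4% (Gad2) of those genes.

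No member passed the test in any comparison of exposed with control animals. Among males, 9.95% of all genes were called for BFR, 12.5% for OPFR and 11.8% for FM550 (edgeR quasi-likelihood test, adjusted p below 0.05), and 0 of the 5 members in each. Among females 0.0% of genes were called in BFR, 3.1% in OPFR and 0.0% in FM550 animals, and for the mean of both sexes 12.4%, 19.3% and 8.13%, again with 0 of 5 members. BFR females had 1345 genes at an unadjusted p below 0.05 and FM550 females 927, and DESeq2 called 2 and 22 genes there. Over all 17 comparisons made, edgeR called 0 of 85 member tests and gave 1 an unadjusted p below 0.05, while DESeq2 called 0 and gave 3. With only 5 genes, a count of 0 is near these shares and is not a result about the members.

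With a term for libraries 1 to 7 in the model, most calls across all genes were lost as well. For BFR the share called was 0.0% in males, in females and for the mean of both sexes, with 193, 700 and 459 genes at an unadjusted p below 0.05. For FM550 it was also 0.0% in all 3, with 345, 961 and 760 genes. For OPFR it was 0.0% in males (531 genes at an unadjusted p below 0.05), 1.42% in females and 0.525% for the mean of both sexes. The members again had 0 calls. DESeq2 was not run with this term.

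For the decarboxylases the estimates in males, and those of Gad2 also in females, moved with libraries 1 to 7. In males, the log2 fold change of Gad1 against controls was 0.00 ± 0.15 (SE) for BFR, -0.21 ± 0.15 for OPFR and 0.00 ± 0.15 for FM550. In females it was 0.01 ± 0.15, -0.06 ± 0.16 and 0.21 ± 0.15. Gad2 had values between -0.09 and 0.17 in the same 6 comparisons, with SEs of 0.19 to 0.20. The lowest of these 12 pooled estimates, for Gad1 in OPFR males, had an adjusted p of 0.39 by edgeR. With the term for libraries 1 to 7, Gad2 in BFR, OPFR and FM550 females was -0.22 ± 0.20, -0.17 ± 0.21 and 0.04 ± 0.20. The pooled values there were -0.09, -0.04 and 0.17. With the same term, Gad1 in BFR, OPFR and FM550 males was -0.13 ± 0.21, -0.34 ± 0.21 and -0.13 ± 0.21, and Gad2 was -0.30 ± 0.25, -0.35 ± 0.25 and -0.26 ± 0.25. Against library 11, the control male with the highest Gad1 and Gad2, Gad1 was -0.35 ± 0.28, -0.57 ± 0.27 and -0.35 ± 0.28, and Gad2 was -0.47 ± 0.34, -0.52 ± 0.34 and -0.43 ± 0.34. The OPFR value of Gad1 there had an unadjusted p of 0.045 and an adjusted p of 0.93 by edgeR, and rests on 1 control male.

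Slc32a1 had lower fitted levels in all 3 exposed male groups, none past the test. The log2 fold change was -0.27 ± 0.17 (SE) in BFR males, -0.32 ± 0.17 in OPFR males and -0.30 ± 0.17 in FM550 males (edgeR adjusted p 0.33, 0.22 and 0.26). These comparisons share the same 6 control males, of which 5 are in libraries 1 to 7. With a term for those libraries the values were -0.10 ± 0.23, -0.15 ± 0.23 and -0.13 ± 0.23, and against library 11 alone they were -0.33 ± 0.30, -0.38 ± 0.30 and -0.36 ± 0.30. In females the pooled values were -0.14 ± 0.17, -0.02 ± 0.18 and 0.15 ± 0.17. With the term the female values were -0.06 ± 0.18, 0.07 ± 0.19 and 0.23 ± 0.18. Without libraries 1 to 7 they were 0.01 ± 0.19, 0.13 ± 0.19 and 0.29 ± 0.19, and none was called. The part of libraries 1 to 7 in the male values was not tested beyond these fits.

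The vesicular glutamate transporters gave no call either. In males Slc17a7 was at -0.11 ± 0.15 (log2 fold change, SE) for BFR, -0.15 ± 0.15 for OPFR and -0.10 ± 0.15 for FM550. In females it was at -0.04 ± 0.15, -0.24 ± 0.16 and -0.08 ± 0.15. With the term for libraries 1 to 7 the male values were 0.02 ± 0.21, -0.03 ± 0.21 and 0.02 ± 0.21. The OPFR female value moved to 0.01 ± 0.17 without OPFR females 4 and 5, the libraries with 93.3 and 126 CPM. Slc17a6 had positive values throughout, from 0.02 ± 0.17 in OPFR females to 0.14 ± 0.16 in BFR females. With a term for libraries 1 to 7 it lay below 0 in 5 of the 6 comparisons. Against library 11 alone, the male values for BFR, OPFR and FM550 were instead 0.305, 0.322 and 0.318. Without libraries 1 to 7 the female values were -0.01, -0.14 and -0.13. Over the 30 pooled estimates SEs were 0.15 to 0.20, so that 2 SEs correspond to 1.23- to 1.32-fold.

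In BFR and FM550 males the direction of the set depended on how libraries 1 to 7 were treated, while in OPFR males and in females its median kept its sign. Of the 5, 3 were above 0 in BFR males, 1 in OPFR males and 3 in FM550 males, with median log2 fold changes of 0.00, -0.15 and 0.00. In females 2, 1 and 4 were above 0, with medians of -0.04, -0.04 and 0.15. With the term for libraries 1 to 7, 1, 0 and 1 of the 5 were above 0 in BFR, OPFR and FM550 males, with medians of -0.13, -0.15 and -0.13. In females 2, 1 and 3 were then above 0, with medians of -0.04, -0.12 and 0.04. The 3 male comparisons share their controls, and no member was called in them. The medians over all genes tested lay within 0.01 of 0 in these comparisons, pooled or with the term.

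**Figure D2:**
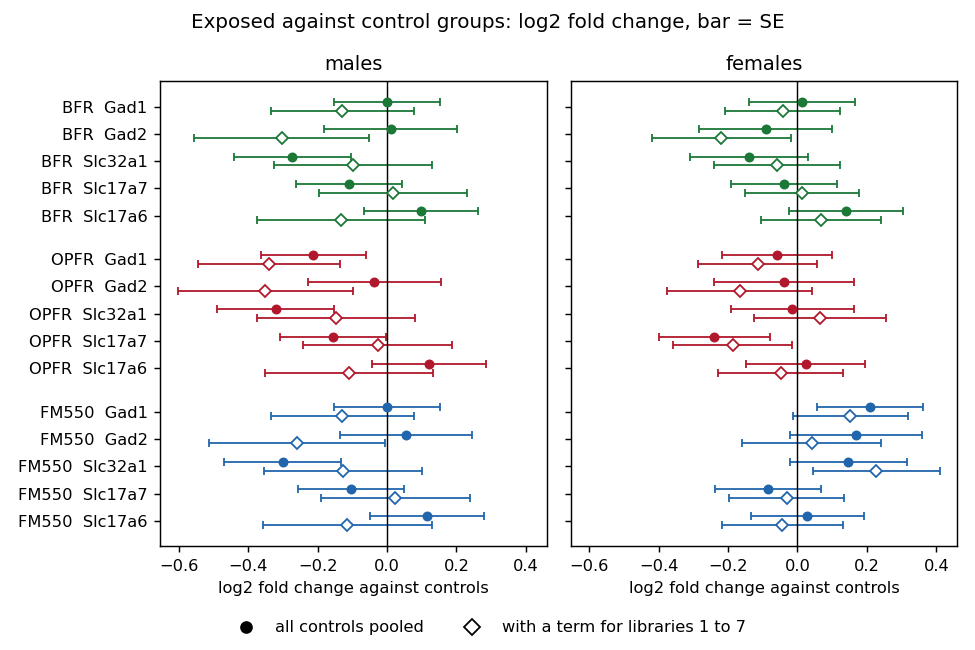
Log2 fold change of each gene against controls of the same sex (x axis, bars are SE) for the 3 exposures, with all controls pooled (filled) and with a term for libraries 1 to 7 (open). The pooled Slc32a1 values in males, -0.27 to -0.32, lie nearer 0 with the term, and no estimate passed the test.

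No sex difference or interaction was called for these genes. Across the 4 treatments, females minus males gave log2 differences of -0.11 ± 0.08 (SE) for Gad1, -0.11 ± 0.10 for Gad2, -0.14 ± 0.09 for Slc32a1, -0.03 ± 0.08 for Slc17a7 and 0.09 ± 0.08 for Slc17a6. None was called by edgeR (adjusted p 0.999 for each), where 0.128% of all genes were. Without libraries 1 to 7 they were -0.20 ± 0.10, -0.21 ± 0.12, -0.19 ± 0.11, -0.02 ± 0.10 and 0.18 ± 0.11, with library 11 as the only control male. In the fit with a term for libraries 1 to 7 they were -0.13 ± 0.08, -0.16 ± 0.10, -0.12 ± 0.09, -0.02 ± 0.08 and 0.05 ± 0.09, and none was called. For the interaction of sex with exposure, 0.0% of genes were called for each of BFR, OPFR and FM550 (646, 1426 and 1560 genes at an unadjusted p below 0.05, and 3, 0 and 1 called by DESeq2). The largest interaction of a member was Slc32a1 with FM550, where the female minus male difference in response was 0.45 ± 0.24 (edgeR adjusted p = 0.57). It was built from -0.30 in males and 0.15 in females. The corresponding value for OPFR was 0.31 ± 0.24 and for BFR 0.13 ± 0.24. Without OPFR females 4 and 5 the OPFR value was 0.57 ± 0.25, with an unadjusted p of 0.026 and an adjusted p of 0.61 by edgeR. Without libraries 1 to 7 the values for FM550, OPFR and BFR were 0.65 ± 0.35, 0.51 ± 0.36 and 0.34 ± 0.36, all resting on library 11 as the only control male. With a term for those libraries they were 0.35 ± 0.25, 0.21 ± 0.26 and 0.04 ± 0.25. The adjusted p of the FM550 value ran from 0.281 to 1.0 over the alternatives, and that of the OPFR value from 0.517 to 1.0.

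Set against each other, the exposures gave 1 member value with an unadjusted p below 0.05. Gad1 was higher in FM550 than in OPFR libraries, 157 ± 27.1 against 133 ± 28.3 CPM (SD, n = 12 and 11), with a log2 difference of 0.24 ± 0.11 (SE) for the mean of both sexes. Its p was 0.035 and its adjusted p 0.25 by edgeR, so it was not called, and the adjusted p ran from 0.138 to 1.0 over the alternatives. The difference was 0.07 ± 0.12 without OPFR libraries 31 to 35 and 0.12 ± 0.11 without OPFR females 4 and 5. In that comparison 0.00584% of genes were called (1 gene), with daily doses that differ (2000 against 1000 µg). OPFR against BFR, at the same dose of 1000 µg, called 4.75% of genes and no member. There the members lay between -0.14 ± 0.11 for Gad1 and 0.04 ± 0.12 for Slc32a1. FM550 against BFR called 0.204% of genes and no member, with values from -0.05 ± 0.12 for Slc17a6 to 0.15 ± 0.13 for Gad2.

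Within the controls, estimates for libraries 1 to 7 against the others (-0.40 to 0.21) spanned as wide a range as the 30 pooled estimates for exposed against control groups (-0.32 to 0.21). The log2 difference, adjusted for sex, was -0.16 ± 0.14 (SE) for Gad1, -0.40 ± 0.20 for Gad2, 0.21 ± 0.17 for Slc32a1, 0.15 ± 0.10 for Slc17a7 and -0.27 ± 0.18 for Slc17a6. None was called with all 12 controls (lowest edgeR adjusted p 0.21, for Gad2, which ran from 0.0724 to 0.593 over the alternatives). Slc17a7 was called when control male 2 was left out, at 0.19 ± 0.06 and an edgeR adjusted p of 0.037. Gad2 and Slc32a1 thus had estimates of opposite sign. Their ratio, which was looked at after the values were seen, did not overlap: log2 Slc32a1 to Gad2 was -0.13 to 0.35 in libraries 1 to 7 (mean 0.05 ± 0.15, SD, n = 7) and -0.75 to -0.38 in control libraries 8 to 12 (-0.52 ± 0.14, n = 5). Of the 40 libraries numbered 8 to 47, 1 reached the range of libraries 1 to 7, FM550 female 3 at 0.18. The 40 averaged -0.38 ± 0.17. Of the 35 exposed libraries, 15 lay within the range of the later controls and 19 lay between the 2 control ranges, the highest of them FM550 male 4 at -0.15. BFR, OPFR and FM550 libraries averaged -0.36, -0.34 and -0.37, between the 2 control means. The 2 runs of controls did not overlap in log2 Slc32a1 to Gad1 either. It was -0.40 to 0.04 in libraries 1 to 7 and -0.685 to -0.42 in control libraries 8 to 12. Among all later libraries the Gad1 ratio divided less cleanly, since 15 of the 40 reached the range of libraries 1 to 7.

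The balance of inhibitory to excitatory transcripts was described per library as the mean log2 CPM of the 3 GABA genes minus that of the 2 glutamate transporters. Because transcript length is not divided out, the ratio is compared between libraries and its 0 has no meaning. It ran from -0.57 in OPFR male 4 to 1.17 in BFR male 6 and FM550 male 2, a 3.35-fold span. Control libraries 1 to 7 had 0.77, 0.21, 0.66, 0.44, 0.01, 0.46 and 0.41 (mean 0.42 ± 0.26, SD), and control libraries 8 to 12 had -0.08, 0.35, -0.21, 0.98 and 0.58 (0.33 ± 0.49). The 2 runs of controls overlapped in this ratio, unlike in Slc32a1 to Gad2.

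By group, the mean ratio was 0.52 ± 0.36 in control males and 0.25 ± 0.32 in control females (SD, n = 6 each). BFR males had 0.46 ± 0.44 and BFR females 0.15 ± 0.40. OPFR males had 0.36 ± 0.47 and OPFR females 0.32 ± 0.27 (n = 5). FM550 males had 0.43 ± 0.40 and FM550 females 0.46 ± 0.37. All groups overlapped. The highest and the lowest group mean, in control males and BFR females, lay about 1 SD apart. BFR males minus control males came to -0.06, OPFR males to -0.16 and FM550 males to -0.08. They were -0.53, -0.63 and -0.55 against library 11, the only control male outside libraries 1 to 7, which has the third highest ratio of the series. In females, the 4 controls outside libraries 1 to 7 had a mean of 0.16 ± 0.37 (SD). The means of OPFR and FM550 females lay above this and the pooled control mean, and that of BFR females below both. The order of group means depended on how the ratio was built. With Slc17a6 alone in the denominator control males were again highest (1.41). With Slc17a7 alone FM550 females were highest (-0.29), and control, BFR, OPFR and FM550 males had -0.37, -0.34, -0.39 and -0.33. With summed CPM FM550 females were also highest, at 0.87 against 0.84 in control males. BFR females were lowest each time.

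Slc17a7 relative to Slc17a6, the mature cortical against the thalamic and developmental transporter, varied more than 3-fold. The log2 ratio ran from 0.40 in OPFR female 4 to 2.21 in BFR female 4 (3.51-fold). Control libraries 1 to 7 had 1.96, 0.95, 1.98, 2.21, 1.89, 2.02 and 2.03 (mean 1.86 ± 0.42, SD), where library 2 alone was low. Control libraries 8 to 12 had 1.48, 1.33, 1.18, 1.87 and 1.62 (1.50 ± 0.26). BFR libraries averaged 1.53 ± 0.44 (n = 12), OPFR libraries 1.41 ± 0.49 (n = 11) and FM550 libraries 1.51 ± 0.25 (n = 12), beside 1.71 ± 0.39 over all 12 controls. Treatment means were thus within 1 SD of one another.

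Gad1 relative to Gad2, the enzyme of the whole cell against that of the terminal, spanned 1.95-fold, from a log2 ratio of -0.52 in OPFR male 5 to 0.44 in control male 4. Group means lay between -0.04 ± 0.28 (SD, n = 6) in OPFR males and 0.14 ± 0.18 (n = 6) in BFR females, with all groups overlapping.

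OPFR libraries made up 2 runs by number. Libraries 25 to 30 (3 males, 3 females) were tight: log2 Slc17a7 to Slc17a6 was 1.55 to 1.84 (mean 1.73 ± 0.11, SD, n = 6), and the inhibitory to excitatory ratio 0.34 to 0.63 (0.48 ± 0.10). Libraries 31 to 35 (3 males, 2 females) had 1.02, 0.40, 0.98, 0.93 and 1.74 for the first (1.01 ± 0.48) and -0.57, 0.11, 0.79, -0.01 and 0.57 for the second (0.18 ± 0.53). Library 35 lay with the first run. The other 4 shared some low genes and not others. Gad1 was low in all 4. Libraries 31, 32 and 34 were low in Gad2 and Slc32a1 as well, whereas library 33 had Gad2 at 156 CPM. Slc17a7 was low in libraries 32, 33 and 34 and stood at 173 CPM in library 31, which had Slc17a6 at 85.3 CPM. These runs were known to differ from earlier results, and the comparison is a description.

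**Figure D3:**
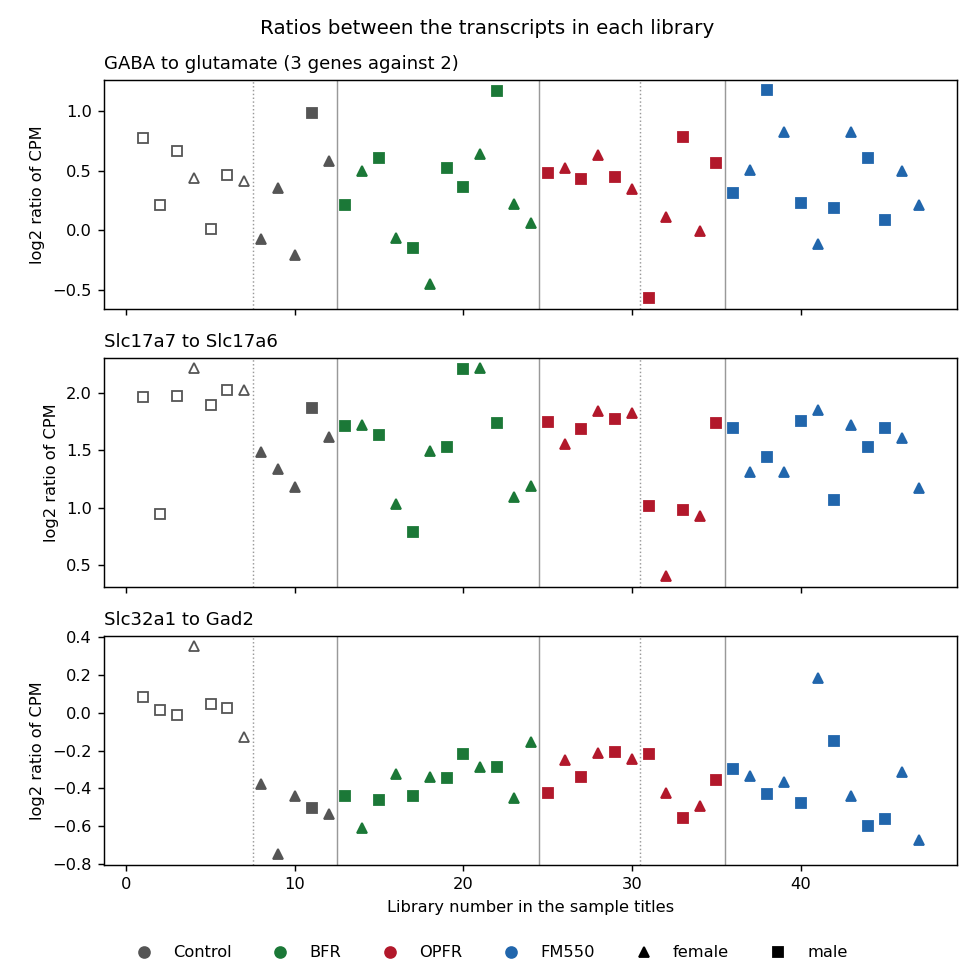
Log2 ratios of CPM (y axis) for GABA to glutamate genes, Slc17a7 to Slc17a6 and Slc32a1 to Gad2 in each library, by the number in its title (x axis). Colours are treatments, triangles females, squares males and open symbols control libraries 1 to 7, solid lines divide treatments, and dotted lines divide libraries 7 from 8 and 30 from 31. In the bottom panel libraries 1 to 7 lie at -0.13 to 0.35, above all later libraries but FM550 female 3.

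The 3 GABA genes rose and fell together between libraries of a group. Over the 40 libraries numbered 8 to 47, with group means removed from log2 CPM, Pearson's r was 0.85 for Gad1 with Gad2 (Spearman's rho 0.85), 0.88 for Gad1 with Slc32a1 (0.87) and 0.88 for Gad2 with Slc32a1 (0.89). Each had a permutation p of 1e-05 by r and by rho, the smallest that 100000 permutations can give, and an adjusted p of 3.33e-05 over the 10 pairs of members. Without the 2 libraries farthest from the median of the first gene, r was 0.82, 0.86 and 0.88. Points share TMM scaling and the depth of their library. The single control male in this set, library 11, deviates by 0 by construction.

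Slc17a6 ran the other way, less closely. Its r was -0.46 with Gad1 (rho -0.41), -0.41 with Gad2 (-0.42) and -0.53 with Slc32a1 (-0.48). Permutation p were 0.00416, 0.0124 and 0.00074 by r (adjusted 0.00832, 0.0206 and 0.00185) and 0.0159, 0.0123 and 0.00333 by rho (adjusted 0.0264, 0.0247 and 0.00832). Without the 2 farthest libraries r was -0.42, -0.35 and -0.43. The relation was weaker without OPFR libraries 31 to 35, most so for Gad2. There r was -0.39, -0.25 and -0.42 over 35 libraries, with adjusted permutation p of 0.0973, 0.318 and 0.0802. Fewer libraries also raise the p of a given r, so the missed threshold does not by itself show dependence on those libraries.

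Slc17a7 followed neither pattern. Its r was 0.38 with Gad1, 0.06 with Gad2 and 0.20 with Slc32a1 (rho 0.28, 0.06 and 0.16), with permutation p of 0.0488, 0.742 and 0.303 by r (adjusted 0.0697, 0.742 and 0.379) and 0.129, 0.744 and 0.38 by rho (adjusted 0.184, 0.744 and 0.439). With Slc17a6, the transporter of the same family, r was 0.06 and rho 0.14 (permutation p 0.717 and 0.395, adjusted 0.742 and 0.439). Without the 2 farthest libraries the 4 values of r were 0.50, 0.18, 0.29 and 0.08. Without OPFR libraries 31 to 35, r with Gad1 was 0.03. For Slc17a7 with Slc17a6, r was then 0.18 and rho 0.33 (adjusted permutation p 0.507 and 0.166). Without OPFR females 4 and 5 that pair had r of 0.20 and rho of 0.33 (adjusted permutation p 0.36 and 0.102). No joint variation of the vesicular glutamate transporters was detected in these libraries.

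Control libraries 1 to 7, taken alone, gave r of 0.83 for Gad1 with Gad2, 0.82 for Gad1 with Slc32a1 and 0.86 for Gad2 with Slc32a1 (n = 7, no means removed). Exact permutation p were 0.0228, 0.0371 and 0.0165 (adjusted 0.114, 0.124 and 0.114). Without the 2 farthest libraries r was 0.77, 0.45 and 0.30, so within libraries 1 to 7 the last 2 relations rest on those libraries.

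**Figure D4:**
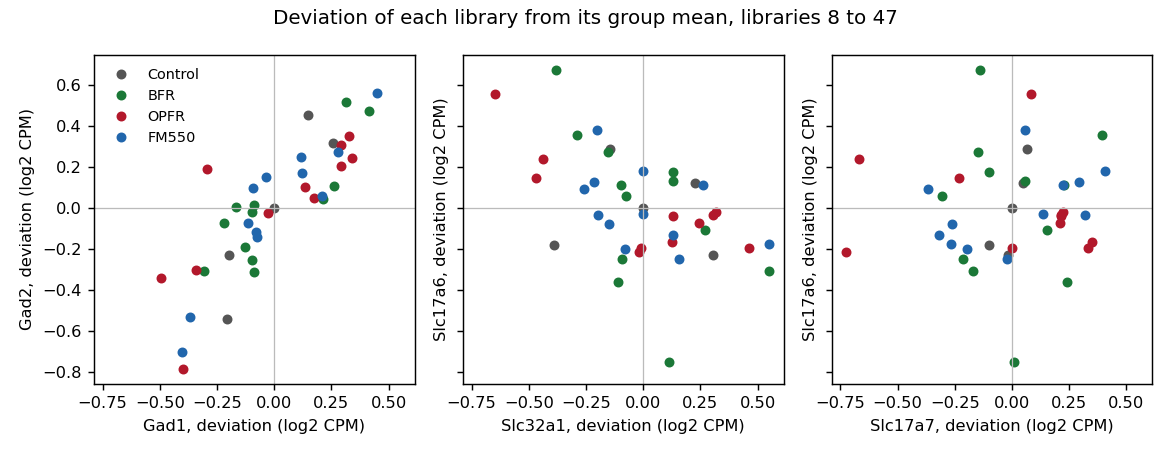
Deviation of each library from its group mean in log2 CPM, libraries 8 to 47, coloured by treatment: Gad2 against Gad1 (left), Slc17a6 against Slc32a1 (middle) and Slc17a6 against Slc17a7 (right). The left cloud rises (r = 0.85), the middle one falls (r = -0.53) and the right one has no slope (r = 0.06).

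Seen among all genes, the GABA members were close to one another but not each other's nearest neighbour. Of 12933 genes ranked by r with Gad1 over the same 40 libraries, Slc32a1 was at rank 28 and Gad2 at rank 66, and the first was ENSRNOG00000013162 with r = 0.96. For Gad2, Slc32a1 was at rank 41 and Gad1 at rank 64. For Slc32a1, Gad1 was at rank 24 and Gad2 at rank 30. Slc17a6 was far down each list, at ranks 11891, 12087 and 12658. The gene most like Slc17a7 was ENSRNOG00000024730 (r = 0.89), with Slc17a6 at rank 6241. For Slc17a6 the highest r was 0.75, lower than the best of any other member, and Slc17a7 was at rank 4447. These ranks are a description, and the files give no names for the leading IDs.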

How the data were processed

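Read counts per Ensembl gene were deposited by the authors as raw whole numbers in 1 table of 47 columns, each assigned to a sample by the number in its title. Poly(A) selection and a directional library kit are named in the labels' protocols. FastQC, featureCounts and DESeq2 are named in the submitters' processing notes, with no version or role. Aligner, genome build and strand setting were not given in the sources used here. Reads of overlapping genes were taken as counted. The 15 entries naming no gene held no values.

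Samples were grouped by treatment and sex from the labels. Replicate numbers follow record order and pair no samples. Counts were fitted with edgeR 4.0.16 (R 4.3.3): filterByExpr (minimum count 10, minimum total 15), TMM scaling, and a quasi-likelihood model with 8 group means over 47 libraries (common BCV 0.193). Tests were two-sided, and p-values were adjusted by Benjamini-Hochberg over all genes tested, with calls below 0.05. Log2 CPM used a prior count of 2. Correlations used 100000 permutations, or every permutation for 7 libraries. The fit was checked on simulated data. The text names the 5 members and the gene most like Gad1 and Slc17a7 among those whose average log2 CPM was 1 or more. Members and lists were chosen with earlier results of these data known. Lists of other pathway genes and cell type markers could not be applied, since 0 of 32883 IDs matched the reference table.

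Alternatives were a term for libraries 1 to 7, leaving out libraries 1 to 7, OPFR females 4 and 5 or OPFR libraries 31 to 35, DESeq2 1.42.0, RLE factors, all genes with a read, separate fits of the groups compared, and leaving out each library. For ratios they were a prior count of 0.5, summed CPM and each glutamate transporter alone. Leaving out libraries for the ratios, the correlations without libraries 31 to 35 or within libraries 1 to 7, and the Slc32a1 ratios were added after the data were seen.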

Additional observations from a re-analysis of the deposited data

Results flagged for a closer look

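Each of the 8 groups was checked for a highest or lowest library far from the rest, in 80 checks over the 5 levels and 5 ratios. Such a check picks out about 1 in 20 groups by chance, and 7 of the 80 were picked out here. Slc17a7 to Slc17a6 was lowest in control male 2, at a log2 ratio of 0.95, where the other 5 control males lay between 1.87 and 2.02. Slc32a1 to Gad2 was lowest in control male 6, at -0.50, with the others between -0.01 and 0.08. That library is the only control male outside libraries 1 to 7. Gad2 was highest in BFR female 1, at 176 CPM against 99.0 to 126 CPM. In OPFR males, Slc17a7 was lowest in replicate 5, at 98.8 CPM against 163 to 189.5 CPM. Slc17a6 was highest in OPFR male 4, at 85.3 CPM against 50.1 to 56.8 CPM, and the GABA to glutamate ratio was lowest in the same library, at -0.57 against 0.43 to 0.79. Slc32a1 was highest in FM550 male 2, at 159.6 CPM against 91.0 to 109 CPM. Both OPFR males belong to libraries 31 to 35.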

How the results depend on the processing

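Apart from leaving out 1 library, 650 member values were recomputed under alternatives and 0 were called. A value is given as reversed where its sign changed and it lay more than 1 SE from 0 before or after, which held for 16, while the sign changed in 92. With a term for libraries 1 to 7, Gad2 in males was -0.30 for BFR and -0.26 for FM550, and the mean of both sexes for Slc17a6 with BFR was -0.032. Without those libraries, Gad1 and Gad2 in males were -0.35 and -0.47 for BFR and -0.35 and -0.43 for FM550. Without OPFR females 4 and 5, OPFR females had 0.18 for Gad1, 0.24 for Slc32a1 and 0.0081 for Slc17a7, and Slc17a7 in OPFR against BFR was 0.00098. Without OPFR libraries 31 to 35, OPFR females had 0.17 for Gad1 and 0.23 for Slc32a1, and for the mean of both sexes Gad1 was 0.031 for OPFR against control and 0.024 against BFR, and Slc17a7 0.047 against BFR. The cause was not tested. Leaving out 1 library at a time gave 1 call in 1710 values: between the 2 runs of controls, 0 to 1 members were called, the 1 being Slc17a7 (0.19) without control male 2.

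Without libraries 1 to 7, the GABA to glutamate difference from controls was -0.53 in BFR males, -0.63 in OPFR males and -0.55 in FM550 males, resting on 1 control male. Slc17a7 to Slc17a6 in OPFR females minus controls was 0.093 without females 4 and 5, which are the females of libraries 31 to 35, and -0.33 with them. The correlation of Gad1 with Slc17a7 was 0.38 with a permutation p adjusted to 0.0224 when no group means were removed. Correlations with Slc17a6 that missed the threshold were Gad2 at -0.37 (adjusted permutation p 0.0529) without OPFR females 4 and 5, and Gad1 at -0.39 (0.0973), Gad2 at -0.25 (0.318) and Slc32a1 at -0.42 (0.0802) without libraries 31 to 35. The GABA pairs held under each alternative run on libraries 8 to 47. No paired analysis was possible because the labels name no litters or animals by which samples could be paired. Depth does not limit these genes. The spread between libraries does.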
